A study of Mus musculus with 17 samples.

Results

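The genes described here are the adult globins Hba-a1, Hba-a2, Hbb-bs and Hbb-bt together with Alas2, 5 of the 47643 symbols in the expression table, taken by their symbols in the diaphragm of 17 male C57BL/6J mice. All 5 passed the filter on low values, as did 13305 symbols in all. The mice were 4 months old and fell into 4 groups. Control and Control + rFibcd1, the tumor-free groups, held 5 mice each, LLC held 3 and LLC + rFibcd1 held 4. LLC and LLC + rFibcd1 mice carried subcutaneous tumors grown from injected Lewis lung carcinoma cells, a mouse lung tumor line. The rFibcd1 groups received intraperitoneal injections of a recombinant C-terminal fragment of mouse Fibcd1, and the Control and LLC groups received mock injections of buffered saline with albumin. The tissue was whole diaphragm without tendons, and perfusion of the mice is not given in the sources used here, so the amount of blood left in each sample is not known. Expression is given as TPM, the number of transcripts of a gene per 1000000 transcripts, a level that allows for the length of the gene and sums to the same total in each sample.

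Hemoglobin carries oxygen in red cells and is built from alpha chains, encoded by Hba-a1 and Hba-a2, and beta chains, encoded by Hbb-bs and Hbb-bt, each holding a heme. Mature mammalian red cells have no nucleus, but reticulocytes, the young red cells that leave the bone marrow, still carry globin mRNA. Alas2 encodes the erythroid form of 5-aminolevulinate synthase, which starts heme synthesis in red cell precursors, while other tissues, muscle included, use its paralog Alas1.

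The alpha pair lies on chromosome 11 on the plus strand, with Hba-a1 at chr11:32283511-32284465 and Hba-a2 at chr11:32296489-32297298, 12023 bases apart (GENCODE vM21, GRCm38). The beta pair lies on chromosome 7 on the minus strand, with Hbb-bt at chr7:103812524-103813996 and Hbb-bs at chr7:103826534-103828096, 12537 bases apart. Alas2 is on the X chromosome at chrX:150547375-150570638, plus strand. The promoters are shown as a description of the 5 genes, and their part in the levels measured here was not tested. Each is the 250 bases before the RefSeq start (GRCm38.p6), written 5′ to 3′ on the strand of the gene. Capitals mark 4 motifs searched on both strands. They are GATAA (read as TTATC from the other strand), the CACCC motif (read as GGGTG), the CCAAT motif (read as ATTGG) and the TATAA motif (read as TTATA), the cores of elements long known in erythroid promoters. Capitals run together where motifs touch or overlap.
Hba-a1, chr11:32283422-32283671, plus strand: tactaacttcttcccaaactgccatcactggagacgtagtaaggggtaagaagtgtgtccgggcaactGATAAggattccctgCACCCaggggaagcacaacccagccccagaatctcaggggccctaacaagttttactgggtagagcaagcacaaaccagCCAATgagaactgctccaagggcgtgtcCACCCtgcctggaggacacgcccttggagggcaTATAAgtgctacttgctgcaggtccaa
Hbb-bs, chr7:103827929-103828178, minus strand: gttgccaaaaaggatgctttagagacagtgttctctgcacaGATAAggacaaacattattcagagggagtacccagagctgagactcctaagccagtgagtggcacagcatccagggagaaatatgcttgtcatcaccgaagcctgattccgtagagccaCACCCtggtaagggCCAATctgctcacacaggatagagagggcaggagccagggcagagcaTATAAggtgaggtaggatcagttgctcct
Hbb-bt, chr7:103813924-103814173, minus strand: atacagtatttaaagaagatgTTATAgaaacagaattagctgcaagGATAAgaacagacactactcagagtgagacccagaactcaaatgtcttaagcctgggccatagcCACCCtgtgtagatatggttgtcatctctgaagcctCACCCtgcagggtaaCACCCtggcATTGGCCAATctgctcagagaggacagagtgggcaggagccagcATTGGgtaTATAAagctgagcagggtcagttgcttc
Alas2, chrX:150547167-150547416, plus strand: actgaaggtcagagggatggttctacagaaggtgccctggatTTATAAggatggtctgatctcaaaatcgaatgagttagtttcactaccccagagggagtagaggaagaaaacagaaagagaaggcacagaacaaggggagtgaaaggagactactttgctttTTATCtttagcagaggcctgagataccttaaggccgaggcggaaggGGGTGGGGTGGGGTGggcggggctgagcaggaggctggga
The Hba-a2 window (chr11:32296242-32296491, plus strand) matched that of Hba-a1 at 247 of 247 bases once shifted by 3 bases, so it is not printed. GATAA was found once in each of the 5 windows, with its first base at position -209 in Hbb-bs, -204 in Hbb-bt, -185 in Hba-a2, -182 in Hba-a1 and -86 in Alas2, counted from the start. CACCC was found in all 5 windows, once in Hbb-bs, in 2 copies in each alpha globin and in 3 copies in Hbb-bt and in Alas2. TATAA began at positions -27 to -30 in the 4 globins, whereas in Alas2 its forward match began at -207. CCAAT was found in the 4 globins and these letters were not in the Alas2 window. Over 32851 mouse promoter windows of the same length, GATAA was present in 22.6%, CACCC in 52%, CCAAT in 33.8%, TATAA in 22.8% and all 4 in 0.968%. A match describes the letters of a window and is not evidence of a bound site. In GENCODE vM21 the gene models of all 5 begin inside these windows, upstream of the RefSeq start.

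The paralogs are so alike that their levels cannot be fully told apart. Of all stretches of 100 bases in the main Hba-a2 transcript, 74.5% were also present in Hba-a1, and the reverse share was 56.5%. For Hbb-bs and Hbb-bt the shares were 62.6% and 54.8%. Reads were pairs of that length, and how such reads were divided between the copies is not given in the sources used here, so the division of signal within each pair is uncertain while the sums are less affected.

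Hba-a1 was measured at 3965, 2102, 1085, 837 and 2124 TPM in Control replicates 1 to 5 and at 2952, 4089, 1943, 815 and 1210 TPM in Control + rFibcd1 replicates 1 to 5. It reached 2837, 3618 and 9152 TPM in LLC replicates 1 to 3 and 3148, 3904, 3468 and 4252 TPM in LLC + rFibcd1 replicates 1 to 4. The tumor-free mice spread over a 5.02-fold range, and the LLC + rFibcd1 mice over a 1.35-fold range. LLC replicate 3 stood far above every other mouse, and 7 of the 10 tumor-free mice were below the lowest tumor-bearing mouse.

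Hba-a2 was measured at 6712, 3442, 1794, 1266 and 3552 TPM in Control and at 5143, 6884, 3218, 1261 and 2009 TPM in Control + rFibcd1. It was at 4608, 6011 and 15236 TPM in LLC and at 4666, 6133, 5177 and 6786 TPM in LLC + rFibcd1. The mice kept nearly the same order as for Hba-a1, and 6 of the 7 tumor-bearing mice lay below the highest tumor-free mouse.

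Hbb-bs had the highest mean level of the 5 genes, 5789 ± 3792 TPM (SD, n = 17). Its values were 7754, 4114, 2052, 1417 and 4134 TPM in Control and 6247, 7923, 3846, 1492 and 2338 TPM in Control + rFibcd1. They were 5397, 7009 and 17596 TPM in LLC and 5365, 7454, 6430 and 7849 TPM in LLC + rFibcd1. Tumor-bearing mice overlapped the top of the tumor-free range, which again was formed by Control replicate 1 and Control + rFibcd1 replicates 1 and 2.

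Hbb-bt, the lower beta globin, was at 1820, 975, 522, 317 and 1040 TPM in Control and at 1635, 1859, 898, 340 and 573 TPM in Control + rFibcd1. It was at 1275, 1804 and 4784 TPM in LLC and at 1536, 1929, 1750 and 1991 TPM in LLC + rFibcd1. Its range over all mice, 15.1-fold, was the widest of the 5 genes, and 3 of the 7 tumor-bearing mice exceeded every tumor-free mouse.

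Alas2, the heme synthesis enzyme, was far lower than the globins. It was at 60.2, 31.6, 18.9, 11.6 and 34.9 TPM in Control and at 56.2, 67.3, 30.1, 11.6 and 19.4 TPM in Control + rFibcd1. It was at 49.9, 65.7 and 168 TPM in LLC and at 53.1, 73.5, 64.1 and 73.9 TPM in LLC + rFibcd1. The 3 tumor-free mice that reached into the tumor-bearing range were the same as for the globins, and LLC replicate 3 was again the highest.

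**Figure D1:**
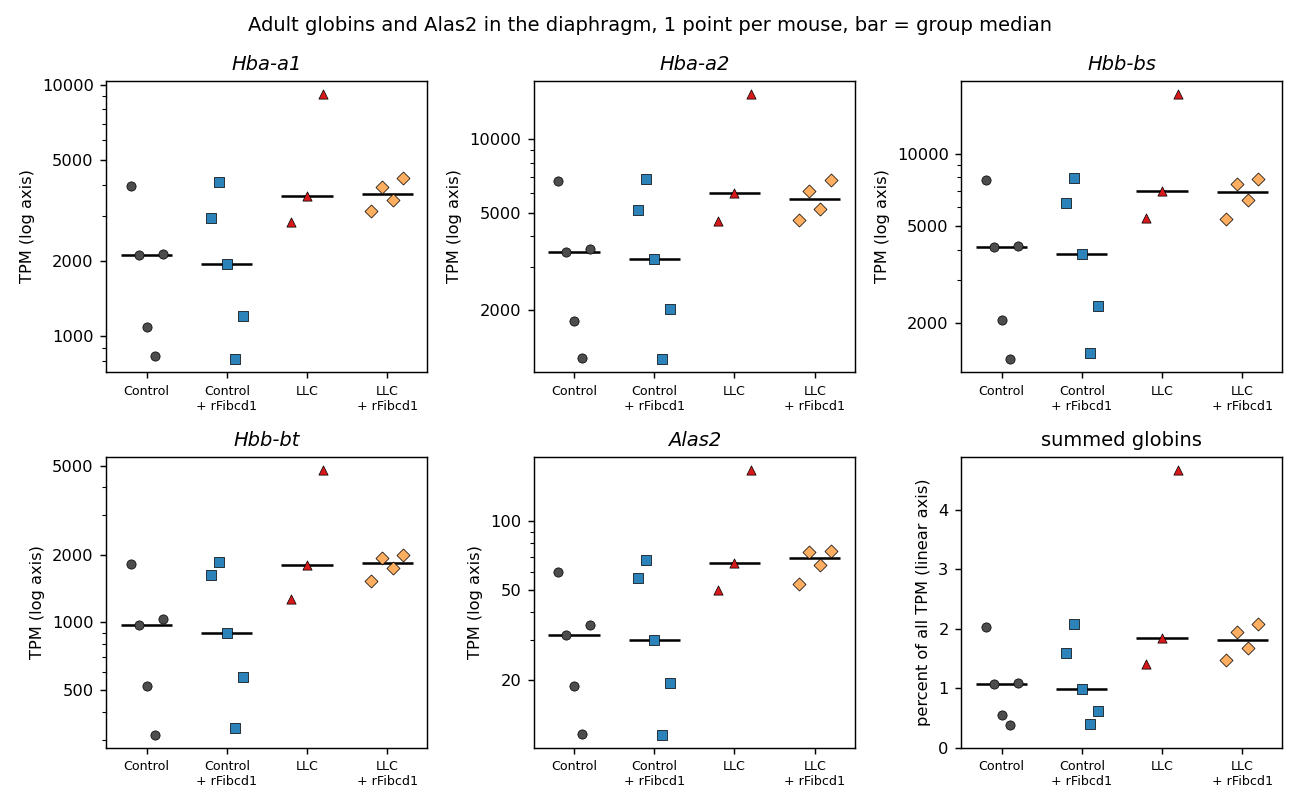
Level of each gene in each mouse (TPM, log axis) and the summed globins as a percent of all TPM (linear axis), by group, with 1 point per mouse and a bar at the group median. LLC replicate 3 is the highest point in every panel, and the LLC + rFibcd1 mice are the most tightly spaced.

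The 4 globins together made up 0.384% to 2.08% of all TPM in the tumor-free mice (median 1.03%) and 1.41% to 4.68% in the tumor-bearing mice (median 1.84%). The mean share was 1.02% ± 0.642 (SD) over the 5 Control mice and 1.13% ± 0.697 over the 5 Control + rFibcd1 mice. It was 2.64% ± 1.77 over the 3 LLC mice and 1.80% ± 0.274 over the 4 LLC + rFibcd1 mice, the group with the smallest spread. Over all mice the summed level spanned a 12.2-fold range, and within the tumor-free mice alone a 5.41-fold range. In whole tissue, a larger number of red cells and more RNA per red cell cannot be told apart. TPM is a share, so these levels also depend on the amount of other RNA in each sample.

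The sequencing depth behind these values was high. It was estimated from the spacing of low TPM values at 50600000 to 54500000 reads per mouse, and Alas2 rested on 697 to 9794 reads, so the spread between mice is far beyond counting error. Mitochondrially encoded transcripts took 45.4% to 50.4% of the TPM in tumor-free and 41.3% to 46.5% in tumor-bearing mice, which sets the scale of the other genes. The lowest share was that of LLC replicate 3. The tissue carried its muscle markers, with Acta1, the skeletal actin, at 19854 to 25160 TPM.

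Across mice the 4 globins and Alas2 rose and fell together. Summed alpha globins followed summed beta globins with a Pearson r of 0.999 and a Spearman rho of 0.998 (n = 17, permutation test over 100000 resamples, two-sided, p = 1e-05, the smallest it can give, adjusted p = 1e-05 over 4 relations). The summed globins followed Alas2 with r = 0.995 and rho = 0.978, at the same permutation p and adjusted p of 1e-05. Hba-a1 followed Hba-a2 with r = 0.998 (rho = 0.995), and Hbb-bs followed Hbb-bt with r = 0.997 (rho = 0.985), each with a permutation p and adjusted p of 1e-05, though these paralogs share reads. After each value was centered on its group mean, r was 0.996 to 0.999 in the 4 relations, so the mice also varied together within groups. Without the 2 mice farthest from the median, Control replicate 4 and Control + rFibcd1 replicate 4, r was 0.990 to 0.999.

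**Figure D2:**
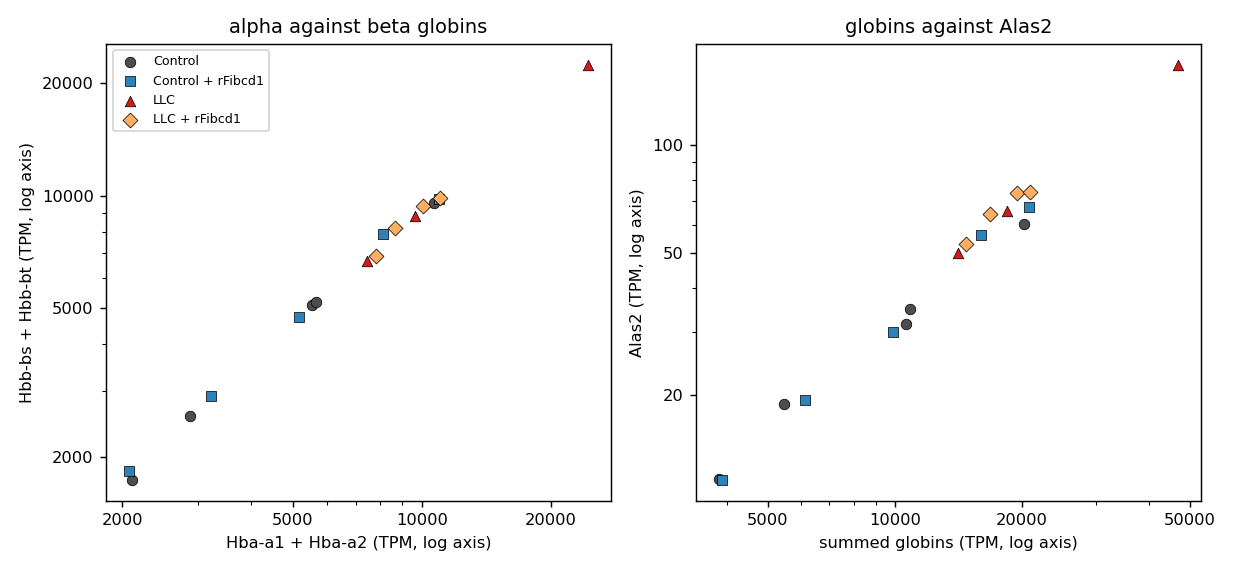
Left, summed beta globins against summed alpha globins, and right, Alas2 against the summed globins, in TPM on log axes with 1 point per mouse and a symbol for each group. Both relations follow a narrow line (r = 0.999 and r = 0.995), with LLC replicate 3 at the upper end.

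The ratio of alpha to beta chains varied far less than the total. The ratio of summed alpha to summed beta globin TPM was 1.11 ± 0.0395 (SD, n = 17) and ranged from 1.03 to 1.21. Hba-a2 stood at 1.62 ± 0.0749 times Hba-a1 (SD, n = 17, range 1.48 to 1.74), and Hbb-bs at 4.03 ± 0.278 times Hbb-bt (SD, n = 17, range 3.49 to 4.48). The ratio of Hbb-bs to Hbb-bt was 4.17 ± 0.210 in tumor-free mice (SD, n = 10) and 3.82 ± 0.238 in tumor-bearing mice (SD, n = 7), 3 of which were below every tumor-free mouse. That of Hba-a2 to Hba-a1 was 1.54 ± 0.0566 in LLC + rFibcd1 (SD, n = 4) against group means of 1.63 to 1.66 elsewhere, and 2 of the 7 tumor-bearing mice were below every tumor-free mouse. Neither difference was tested. These ratios within a pair depend on how shared reads were divided and on the gene lengths used.

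The ratio of globins to Alas2 was 318 ± 19.7 in tumor-free mice (SD, n = 10, range 284 to 337) and 275 ± 8.55 in tumor-bearing mice (SD, n = 7, range 262 to 283). All 7 tumor-bearing mice were below the lowest tumor-free mouse, by a margin of less than the spread within either set, and the ratio was chosen for description after its values were seen, so it was not tested.

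**Figure D3:**
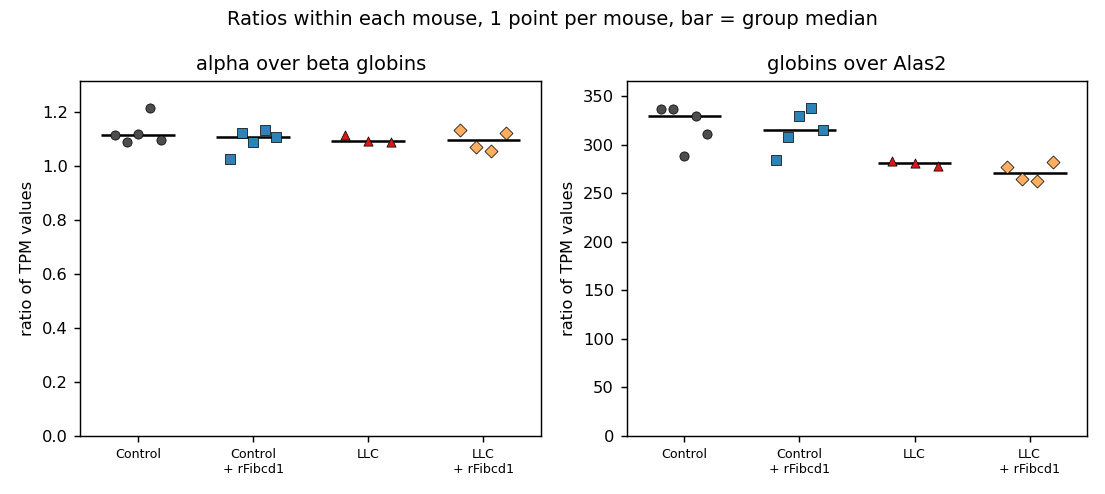
Ratios of TPM values within each mouse by group, with 1 point per mouse and a bar at the group median. The alpha to beta ratio overlaps across all groups (1.03 to 1.21), and the ratio of globins to Alas2 is lower in the 7 tumor-bearing mice (262 to 283 against 284 to 337).

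The first comparison asked how these genes differ between tumor-bearing and tumor-free mice, whatever the injection. All 5 rose in the tumor-bearing mice, by 2.14-fold to 2.45-fold on the log2(TPM + 1) scale (limma, adjusted over all genes tested). In this comparison 44.8% of all genes tested passed an adjusted p under 0.05, and 38.8% passed as higher, so a passing gene was common. The median difference of the 5 was 1.15, beside 0.13 for all genes tested. Hba-a1 differed by 1.15 ± 0.37 (log2, SE, 95% confidence interval 0.37 to 1.94, limma adjusted p = 0.0209) and Hba-a2 by 1.10 ± 0.39 (0.27 to 1.92, limma adjusted p = 0.0321). Hbb-bs differed by 1.11 ± 0.39 (0.28 to 1.94, limma adjusted p = 0.0314), and Hbb-bt by 1.24 ± 0.40 (0.38 to 2.10, limma adjusted p = 0.0229). Alas2 showed the largest difference, 1.29 ± 0.38 (0.48 to 2.11, limma adjusted p = 0.0143). No gene of the 5 separated the 2 sets of mice, since 4 to 6 of the 7 tumor-bearing mice lay within the tumor-free range, while 1.74% of all genes tested were higher with no overlap. P-values here measure the spread between these mice. LLC replicate 3 carried part of the difference. Without it the 4 globins no longer passed, with differences of 0.89 to 1.02 and limma adjusted p of 0.0573 to 0.0876, while Alas2 did (1.09, limma adjusted p = 0.0410). Hba-a2 and Hbb-bs also failed to pass under median-ratio scaling, at limma adjusted p of 0.0577 and 0.0560, and without the filter on low values, at 0.0513 and 0.0504.

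Among mock-injected mice, LLC was compared with Control. The differences were 1.38 to 1.56 (log2), larger than in the comparison over all mice, but with 3 LLC mice their intervals were wide. Alas2 passed (1.56 ± 0.56, SE, 95% confidence interval 0.35 to 2.76, limma adjusted p = 0.0436), while the 4 globins had limma adjusted p of 0.0595 to 0.0681. That call was lost under each of the 3 other scalings, without the filter on low values, with only the 2 groups in the fit (limma adjusted p of 0.0515 to 0.0655 over these 5) and by Dunn's test (adjusted p = 0.144). In this comparison 35.8% of all genes tested passed and 29.7% passed as higher, but this background rested on single LLC mice, since the 4759 genes that passed became 24 without LLC replicate 3 and 2272 without LLC replicate 1. The call for Alas2 held in 5 of the 17 fits that left out 1 mouse each, those without Control replicate 1 or Control + rFibcd1 replicate 1, 2, 4 or 5. Without LLC replicate 3 its difference was 1.04 (limma adjusted p = 0.233), and that of the globins was 0.88 to 0.94. Without Control replicate 1, the highest Control mouse, all 5 passed, with limma adjusted p of 0.0274 to 0.0345.

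Among rFibcd1-injected mice, LLC + rFibcd1 was compared with Control + rFibcd1. The differences were 0.86 to 1.08 and none of the 5 passed, with limma adjusted p of 0.185 to 0.285, in a comparison where 8.06% of all genes tested passed and 7.02% passed as higher. The interval for Alas2 ran from -0.03 to 2.18 and that for Hba-a2 from -0.27 to 1.98. Whether the tumor difference itself changed with rFibcd1 was tested by the interaction. It was -0.41 to -0.54 in the 5 genes, with limma adjusted p of 0.813 to 0.850, and the intervals ran from -2.21 to 1.26 over the 5. No gene of 13305 passed that interaction test in limma (0.00%), and 8.58% had an unadjusted p under 0.05. A tumor difference that changes with rFibcd1 was not detectable at this number of mice, and intervals this wide do not show that the effects are alike.

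The effect of rFibcd1 was compared within tumor-bearing and within tumor-free mice. LLC + rFibcd1 against LLC gave differences of -0.31 to -0.41 and limma adjusted p of 0.658 to 0.755, where 0.113% of all genes tested passed. Those values rest on LLC replicate 3, since without it the differences were 0.10 to 0.24, of the opposite sign. Control + rFibcd1 against Control gave differences of 0.10 to 0.16 with limma adjusted p of 0.95 to 0.97, and the 95% confidence intervals ran from -0.94 to 1.26 over the 5 genes. No gene of 13305 passed in limma in that comparison (0.00%), and 4.39% had an unadjusted p under 0.05. Within each of the 2 pairs of groups the mice overlapped in all 5 genes.

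**Figure D4:**
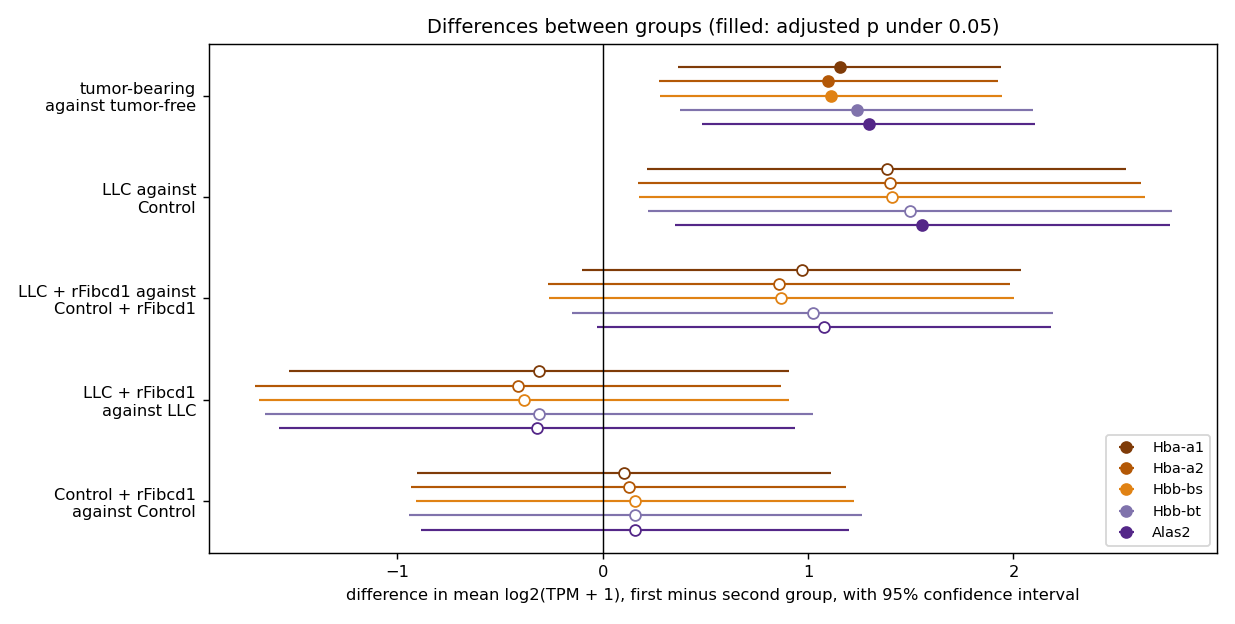
Difference in mean log2(TPM + 1) for each of the 5 genes in each comparison, first minus second group, with its 95% confidence interval, filled where the limma adjusted p is under 0.05. The 5 filled points at the top lie between 1.10 and 1.29, Alas2 at 1.56 is the other filled point, and all intervals of the rFibcd1 comparisons include 0.

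Globins of the embryo and the minor globins were at the edge of detection in every group. The alpha-like Hba-x and the beta-like Hbb-y reached at most 1 estimated read in any mouse, Hbb-bh1 at most 2, and Hbb-bh0 and Hbb-bh2 were listed at 0 in all 17 mice. Hbq1a and Hbq1b, theta globins, were highest at 1.17 and 1.2 TPM. None of these 7 genes passed the filter on low values, so they were not tested.

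Genes of the red cell membrane were taken from a list of 16, of which 9 could be tested. For the 7 that reached 1 TPM in at least 3 tumor-free mice the median difference was -0.13. Of these, 1 was higher and 2 were lower in tumor-bearing mice, where 38.8% of all genes tested were higher and 44.8% passed in either direction. Under the 3 other scalings 0 were higher and 3 to 4 lower. More of all genes passed as lower there. They were 2273 under median-ratio scaling, 3325 under quantile normalization and 1508 without mitochondrially encoded genes, beside 796 as deposited. The other 2 of the 9 passed the filter on low values only through the tumor-bearing mice and are not counted. Slc4a1, the band 3 anion exchanger, was at 0.773, 0.422, 0.307, 0.115 and 0.525 TPM in Control and at 1.24, 0.562, 0.442, 0.0919 and 0.132 TPM in Control + rFibcd1. It was at 0.762, 1.52 and 3.85 TPM in LLC and at 2.50, 1.62, 1.90 and 1.91 TPM in LLC + rFibcd1. In 6 of the 7 tumor-bearing mice it exceeded every tumor-free mouse, on 12 to 456 estimated reads. Its mean difference over all mice was 1.02 (log2), given as a description with no test, because only 1 tumor-free mouse but 6 of 7 tumor-bearing mice reached 1 TPM, and at such levels the pseudocount of 1 TPM shrinks the differences.

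The other genes of this list that are described here gave smaller differences. Gypc, encoding glycophorin C, differed by 0.29 (limma adjusted p = 0.0192) and missed the threshold under all 3 other scalings. Aqp1, the water channel that is also abundant in capillaries, had the highest level of the list at 221 to 444 TPM, and differed by -0.15 (limma adjusted p = 0.280), but by -0.30 under median-ratio scaling, where it passed as lower (limma adjusted p = 0.0485). Tmod1 (-0.14, limma adjusted p = 0.0193) and Ank1 (-0.14, limma adjusted p = 0.0472), which are also expressed in muscle fibers, were the 2 that fell, and neither passed without LLC replicate 3. Sptb, Epb41 and Dmtn, of the membrane skeleton, differed by -0.13, 0.03 and 0.19 and did not pass, though Sptb passed as lower under the 3 other scalings (limma adjusted p of 0.0138 to 0.0207). Under those scalings Epb41 turned to between -0.06 and -0.12, and Dmtn turned to -0.04 under quantile normalization, without passing.

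By a rule that ranks all genes on their Pearson r with the mean log2(TPM + 1) of the 4 globins over 17 mice, Alas2 came first of all other genes (r = 0.996), and the genes with r of 0.9 or more included Ube2l6 (0.977), Bpgm (0.954), Isg20 (0.915) and Zpr1 (0.900). Of 13301 genes outside the 4 globins, 56 (0.421%) had r above 0.8 and the median r was 0.404. Centered on the group means, Alas2, Ube2l6 and Bpgm kept r of 0.928 to 0.997, while Isg20 fell to 0.874 and Zpr1 to 0.846. Bpgm, the red cell enzyme that makes the hemoglobin effector bisphosphoglycerate, was at 18.2 to 31.2 TPM and 27.6 to 57.3 TPM in tumor-free and tumor-bearing mice and differed by 0.52 ± 0.15 (log2, SE). Ube2l6, an ISG15 conjugating enzyme, was at 6.96 to 25.2 TPM in tumor-free and 19.8 to 50.02 TPM in tumor-bearing mice and differed by 0.90 ± 0.25, and Isg20, an interferon-induced exonuclease, by 0.86 ± 0.19. Zpr1, a zinc finger protein, differed by 0.16, and the sign turned to -0.03 under quantile normalization. These tumor differences are a description with no test, since a gene chosen for following the globins tends to share their difference between the groups.

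Of the 19 late erythroid and reticulocyte genes in the table, 14 could be tested. For the 13 that reached 1 TPM in at least 3 tumor-free mice the median difference was 0.23, beside 0.13 for all genes. Of these, 6 passed as higher and 0 as lower, where 38.8% of all genes tested passed as higher, so the count was near that share as deposited. Under the 3 other scalings 5 of the 13 passed as higher and 2 to 4 as lower. Fewer of all genes passed as higher there. They were 2539 under median-ratio scaling, 1819 under quantile normalization and 3343 without mitochondrially encoded genes, beside 5167 as deposited. Those passing as lower were 2273, 3325 and 1508 in the same order, beside 796 as deposited. The 6 of the list that passed as higher as deposited include Ube2l6, Bpgm and Isg20, which follow the globins. Mkrn1, a ubiquitin ligase, rose by 0.61 (limma adjusted p = 0.00356), and Bnip3l, a mitophagy receptor that clears mitochondria from reticulocytes and also acts in muscle, by 0.22 (limma adjusted p = 0.0214), the latter missing the threshold under the other scalings. Prdx2, a peroxidase abundant in red cells, had the highest level of the list (104 to 121 TPM in tumor-bearing mice) and differed by -0.01 (limma adjusted p = 0.838), but passed as lower under the 3 other scalings (limma adjusted p of 0.0277 to 0.0477). Car2, encoding carbonic anhydrase 2, differed by 0.36 (limma adjusted p = 0.25), and Cpox, Tmcc2 and Slc25a37, at -0.06, -0.10 and 0.23, did not pass, though Cpox passed as lower under the 3 other scalings and Tmcc2 under median-ratio scaling and quantile normalization. The other gene was Trim10, a TRIM protein named after its values were seen, which reached 1 TPM in 1 of 10 tumor-free and 5 of 7 tumor-bearing mice and passed the filter only through the latter, so no test of it is given.

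Among transcription factors of the erythroid lineage, Klf1, Gata1 and Gfi1b, regulators of that lineage, stayed at or below 0.287, 0.188 and 0.384 TPM in every mouse and were not tested. Of a list of 10, 4 factors reached 1 TPM in at least 3 tumor-free mice, and 3 of them rose, where 38.8% of all genes tested did, namely Ldb1 by 0.33 (limma adjusted p = 0.00775), Lmo2 by 0.55 (limma adjusted p = 0.00105) and Tal1 by 0.16 (limma adjusted p = 0.0277). Tal1 lost the call under each other scaling, which left 2 of the 4, and its sign turned to -0.06 under quantile normalization. Bcl11a, at 0.0122 to 0.666 TPM in tumor-free and 0.0592 to 1.46 TPM in tumor-bearing mice, passed the filter only through tumor-bearing mice, so no test of it is given. Nfe2 and Myb stayed under the filter, and Zfpm1 differed by 0.31 (limma adjusted p = 0.0866). Ldb1, Lmo2 and Tal1 are also expressed outside the red cell lineage, and no factor of the list had r above 0.8 with the globins.

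For the other genes of heme synthesis, 1 of 12 tested passed as higher and 1 as lower, where 38.8% of all genes tested passed as higher and 44.8% in either direction, the list median was -0.01, and none had r above 0.8 with the globins. Alas1, the synthase of non-erythroid tissue, was at 64.2 to 87.6 TPM in tumor-free and 46.7 to 82.0 TPM in tumor-bearing mice and differed by -0.14 (limma adjusted p = 0.180). Fech, encoding ferrochelatase, which inserts the iron, differed by -0.08 (limma adjusted p = 0.0875), and Tmem14c, a transporter of heme precursors, by 0.06 (limma adjusted p = 0.273). The 2 that passed were Ppox, protoporphyrinogen oxidase (0.37, limma adjusted p = 0.00112), and Abcb10, a mitochondrial transporter (-0.14, limma adjusted p = 0.01), both named after their values were seen. Under the 3 other scalings 6 to 7 of the list passed as lower, Alas1 and Fech among them, and the sign of Tmem14c turned (-0.02 to -0.09). Among all genes, 796 passed as lower as deposited, 2273 under median-ratio scaling, 3325 under quantile normalization and 1508 without mitochondrially encoded genes. Myoglobin (Mb), the oxygen-binding globin of muscle, was at 11034 to 12730 TPM in tumor-free and 9303 to 12896 TPM in tumor-bearing mice and differed by -0.13 (limma adjusted p = 0.0219), but by 0.01 under quantile normalization, and it did not pass without LLC replicate 3 (-0.09, limma adjusted p = 0.119). Cytoglobin (Cygb) rose by 0.37 (limma adjusted p = 0.00755).

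**Figure D5:**
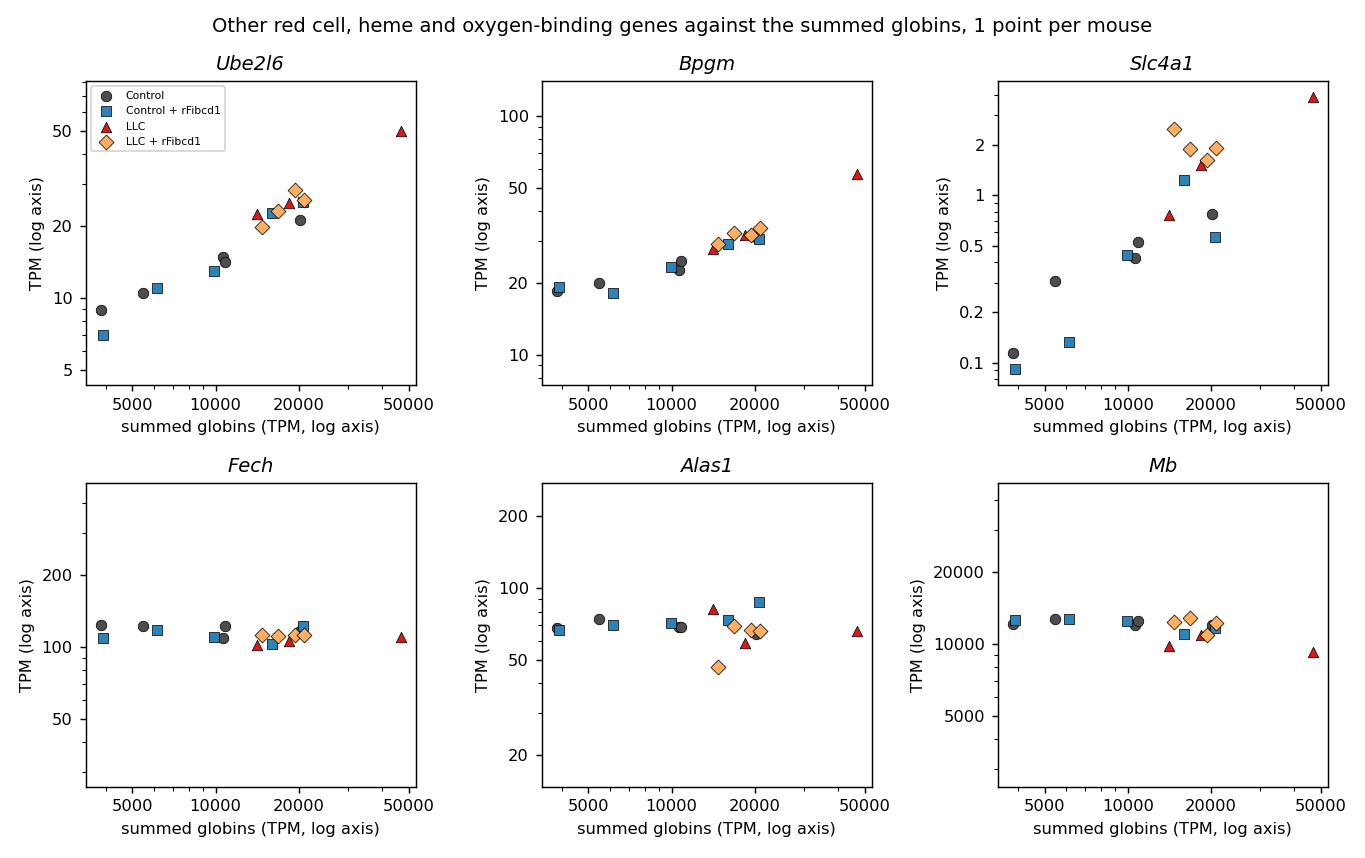
Level of 6 other genes against the summed globins (TPM, log axes), with 1 point per mouse and a symbol for each group. Ube2l6, Bpgm and Slc4a1 increase with the globins, whereas Fech, Alas1 and Mb stay within narrow ranges over the 12.2-fold span of globin level.

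Among genes of iron handling, Ftl1 and Fth1, the ferritin chains, were the 2 of 8 tested iron genes that rose, by 0.63 (limma adjusted p = 0.0102) and 0.20 (limma adjusted p = 0.00305), where 38.8% of all genes tested passed as higher. Fth1 lost the call under median-ratio scaling (0.05, limma adjusted p = 0.453) and turned to -0.09 under quantile normalization, and under both the list gave 1 higher and 2 lower. Tfrc, the transferrin receptor that red cell precursors depend on, differed by 0.003 (limma adjusted p = 0.994). Of 9 genes for hemoglobin and heme clearance 3 rose, a share near that of all genes, and the list gave 3 higher and 1 lower under median-ratio scaling and 2 and 1 under quantile normalization. Slc48a1, a heme transporter, rose by 0.30 (limma adjusted p = 0.00249), and Hmox1, heme oxygenase, and Blvrb, biliverdin reductase B, both named after their values were seen, rose by 0.39 and 0.53 (limma adjusted p = 0.0142 and 0.0135), the former losing the call under quantile normalization (limma adjusted p = 0.0930). Hmox2, the constitutive heme oxygenase, differed by 0.03 (limma adjusted p = 0.321), with the opposite sign under the 3 other scalings, and passed as lower under median-ratio scaling (-0.11, limma adjusted p = 0.0284) and quantile normalization (-0.10, limma adjusted p = 0.0258). Hp, encoding haptoglobin, which binds free hemoglobin, differed by 1.42 but over 34.2 to 783 TPM, and did not pass (limma adjusted p = 0.0505).

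Markers of other cells also differed with the tumor, in a comparison where 38.8% of all genes tested passed as higher. Counted here are the markers that reached 1 TPM in at least 3 tumor-free mice, which leaves out 2 neutrophil, 4 T cell and 2 platelet markers that passed the filter only with the tumor-bearing mice, while summed levels are over each whole list. Neutrophil markers passed as higher for 4 of 5 genes, with a summed level of 7.19 to 84.9 TPM in tumor-free and 56.0 to 227 TPM in tumor-bearing mice. B cell markers passed as higher for 8 of 8 (2.62 to 147 TPM and 19.1 to 297 TPM) and T cell markers for 4 of 4 (1.08 to 18.7 TPM and 2.67 to 50.6 TPM), and without LLC replicate 3 these counts were 0 of 8 and 0 of 4, while the median differences of the same genes were 1.45 for B cell and 0.96 for T cell markers, beside 1.65 and 1.15 with all mice. Endothelial markers passed as higher for 10 of 13 and as lower for 1 (328 to 375 TPM and 379 to 483 TPM), but as higher for 6 under median-ratio scaling, 5 under quantile normalization and 9 without mitochondrially encoded genes. Muscle fiber markers fell for 10 of 15 (70335 to 79905 TPM and 61300 to 72829 TPM), and for 7 under quantile normalization. Of all genes, 796 passed as lower as deposited and 3325 under quantile normalization. Those passing as higher were 5167 as deposited, 2539 under median-ratio scaling, 1819 under quantile normalization and 3343 without mitochondrially encoded genes. Platelet markers passed for 0 of 5 in limma, and for 0 of all 7 tested with 1 at an unadjusted p under 0.05, and summed to 23.0 to 73.8 TPM in tumor-free and 26.5 to 87.2 TPM in tumor-bearing mice. None of the 13 endothelial, 8 B cell, 8 T cell, 7 neutrophil or 7 platelet markers tested had r above 0.8 with the globins. Centered on the group means, the endothelial markers Egfl7 and Cdh5, named after their values were seen, had r of -0.868 and -0.830. No other of these markers passed 0.8 in either direction. In each of these lists no marker in the table was at 0 in every mouse of either set. The part of these cells in the globin differences was not tested.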

How the data were processed

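Libraries prepared from total RNA of the diaphragm of 17 mice were sequenced as 100-base read pairs. Per the labels and the study's methods, the authors mapped reads to mm10 (GRCm38) and deposited TPM values (transcripts per 1000000) per gene symbol. The annotation release, the strandedness of counting and the treatment of reads that fit several genes are not given in the sources used here. The members and gene lists were chosen with earlier results of these data known, and sets of several genes are described by counts and medians alone.

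Values were analysed as log2(TPM + 1) with limma 3.58.1 (R 4.3.3) on all 4 groups (empirical Bayes with an expression trend, 13 residual degrees of freedom), keeping symbols with at least 1 TPM in at least 3 mice, with Benjamini-Hochberg adjustment over 13305 genes at a threshold of 0.05. Tumor-bearing against tumor-free is the mean of the 2 groups with tumors minus the mean of the 2 without, with groups weighted by their numbers of mice. The authors' test, Kruskal-Wallis with Dunn's test, was an alternative, as were another pseudocount, no filter, median-ratio scaling, quantile normalization, rescaling without mitochondrially encoded genes or without the 5 genes, a fit on only the groups compared, a replicate block and leaving out each mouse. Permutation tests used Python 3.11.15 and NumPy 2.4.6. The fit was tested on simulated data for tumor-bearing against tumor-free with 13305 genes. It called 38% of genes changed by 0.25, 68% at 0.5, 96% at 1 and 100% at 2 (log2, 50 genes each). Of 13105 unchanged genes it called 12. Whether these rates hold for the mice here, where 44.8% of genes passed in that comparison, was not tested. Read depth was estimated from the spacing of low TPM values with GENCODE vM21 gene lengths, to which 94.6% of symbols matched, and 81.9% to 84.8% of low values fell within 0.02 of a whole read. No 2 mice had identical columns, and Pearson r between mice was 0.890 to 0.994.

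Named were the 5 genes, the 10 highest by mean TPM of the embryonic globin, red cell membrane, reticulocyte and transcription factor lists, the 3 highest of the other lists except the cell marker lists, which are given as counts, and the 10 genes with the highest Pearson r with the globins. Promoters came from RefSeq (GRCm38.p6), where all 5 genes matched. Some genes that this rule names are not reported here.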

Additional observations from a re-analysis of the deposited data

Results flagged for a closer look

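In groups of 4 or 5 mice, 1 mouse stood apart from the rest by a gap that is large beside the range of its group in 18 of 195 gene and group pairs examined, where chance gives about 1 in 20 groups. None of the 18 concerned Hba-a1, Hba-a2, Hbb-bs, Hbb-bt, Alas2 or the summed globins. The LLC group, with 3 mice, could not be examined in this way, so LLC replicate 3 does not count among them.

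Among minor and embryonic globins the mice that stood apart were Control replicate 3 for Hba-x (0.0445 TPM) and for Hbb-bh1 (0.136 TPM), Control + rFibcd1 replicate 1 for Hbb-bh1 (0.0674 TPM), Control + rFibcd1 replicate 2 for Hbq1a (1.17 TPM) and LLC + rFibcd1 replicate 2 for Hbb-y (0.0604 TPM). All but Hbq1a rest on at most 2 estimated reads.

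Among erythroid transcription factors they were Control replicate 3 for Gata1 (0.188 TPM), Control + rFibcd1 replicate 4 for Gata1 (0 TPM), Control + rFibcd1 replicate 1 for Nfe2 (1.62 TPM) and for Bcl11a (0.666 TPM), LLC + rFibcd1 replicate 1 for Tal1 (2.94 TPM) and Control replicate 2 for Lmo2 (16.0 TPM). The same Control + rFibcd1 replicate 1 had the summed B cell markers at 147 TPM, the highest of its group.

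The other cases were Gypc in LLC + rFibcd1 replicate 2 (25.5 TPM), Car2 in Control replicate 1 (14 TPM), Slc25a37 in Control replicate 3 (9.40 TPM), Prdx2 in Control replicate 4 (117 TPM), Alas1 in LLC + rFibcd1 replicate 1 (46.7 TPM) and Tfrc in Control + rFibcd1 replicate 2 (42.6 TPM).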

How the results depend on the processing

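The 5 genes kept a positive tumor-bearing minus tumor-free difference under all settings run. Without the filter, Hba-a2 (1.10, limma adjusted p = 0.0513) and Hbb-bs (1.11, adjusted p = 0.0504) missed the threshold, as they did under median-ratio scaling (0.95 and 0.96). In LLC against Control, Alas2 missed it without the filter (1.56, adjusted p = 0.0655), under median-ratio scaling (1.38), quantile normalization (1.41) and rescaling without mitochondrially encoded genes (1.47), with only the groups compared (1.56, adjusted p = 0.0549) and by Dunn's test (1.56, adjusted p = 0.144). In these alternatives 311 results kept their side of the threshold or their size and 0 changed sign.

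Counts of genes moved more. LLC + rFibcd1 against Control + rFibcd1 (1072 genes) gave 522 under median-ratio scaling, 467 under quantile normalization, 581 without mitochondrially encoded genes, 304 with only the groups compared and 0 by Dunn's test. LLC + rFibcd1 against LLC (15 genes) gave 2 with a pseudocount of 0.1, 48 without the filter, 9 under median-ratio scaling, 6 without mitochondrially encoded genes, and 0 with only the groups compared and by Dunn's test. The interaction (0 genes) gave 1 without the filter, under median-ratio scaling and under quantile normalization. LLC against Control (4759 genes) gave 0 by Dunn's test. The cause was not tested. The median tumor difference of all genes was 0.13 as deposited, 0.01 under median-ratio scaling, -0.06 under quantile normalization and 0.07 without mitochondrially encoded genes, and 86.7%, 52.8%, 35.4% and 68.9% of calls were higher.

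Replicate numbers did not pair the mice (median r -0.061 over 22 same-number pairs, range -0.459 to 0.485). With a replicate block, tumor-bearing against tumor-free gave 3782 genes, with Hba-a1 at 1.01, Hba-a2 at 0.95, Hbb-bs at 0.96, Hbb-bt at 1.09 and Alas2 at 1.15 (adjusted p 0.0503 to 0.0962). In the same block fit LLC against Control gave 5 genes and Alas2 at 1.26 (adjusted p = 0.138), LLC + rFibcd1 against Control + rFibcd1 gave 492 genes and LLC + rFibcd1 against LLC gave 0.

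Leaving out each mouse in turn gave, for tumor-bearing against tumor-free, 4160 to 6629 genes, Hba-a1 0.96 to 1.28, Hba-a2 0.89 to 1.23, Hbb-bs 0.91 to 1.24, Hbb-bt 1.02 to 1.37 and Alas2 1.09 to 1.43. Beside LLC replicate 3, Hba-a2 also missed the threshold without Control replicate 3 or 4 or Control + rFibcd1 replicate 5, and Hbb-bs without Control replicate 3. LLC against Control ranged over 24 (without LLC replicate 3) to 5254 genes, Hba-a1 0.88 to 1.72, Hba-a2 0.89 to 1.75, Hbb-bs 0.90 to 1.76, Hbb-bt 0.94 to 1.90 and Alas2 1.04 to 1.91. LLC + rFibcd1 against Control + rFibcd1 ranged over 477 to 2893 genes, Hba-a1 0.67 to 1.25, Hba-a2 0.53 to 1.15, Hbb-bs 0.55 to 1.15, Hbb-bt 0.68 to 1.29 and Alas2 0.75 to 1.36. LLC + rFibcd1 against LLC ranged over 0 to 88 genes, Hba-a1 -0.65 to 0.20, Hba-a2 -0.77 to 0.10, Hbb-bs -0.73 to 0.12, Hbb-bt -0.71 to 0.24 and Alas2 -0.67 to 0.19. Control + rFibcd1 against Control gave 0 genes in each fit, Hba-a1 -0.18 to 0.40, Hba-a2 -0.17 to 0.45, Hbb-bs -0.15 to 0.48, Hbb-bt -0.17 to 0.50 and Alas2 -0.13 to 0.49. The interaction ranged over 0 to 11 genes, Hba-a1 -0.75 to 0.0908, Hba-a2 -0.89 to -0.03, Hbb-bs -0.89 to -0.03, Hbb-bt -0.87 to 0.0809 and Alas2 -0.83 to 0.0340. List counts under other scalings, without LLC replicate 3 and among genes at 1 TPM or more in tumor-free mice were chosen after seeing the data.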
